A study of Mus musculus with 6 samples.

Results

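Gpam and 9 other genes of fatty acid and triglyceride synthesis were followed through 6 RNA-seq libraries of mouse muscle satellite cells. The other 9 were Fasn, Acaca, Scd1, Scd2, Srebf1, Agpat2, Lpin1, Dgat1 and Dgat2. These 10 genes, of 24980 gene symbols in the table, were chosen by their place in the pathway around Gpam, and Gpam itself was singled out from its KO against WT values in these same libraries. The differences of the 10 genes between KO and WT are therefore given as a description, with no test. Satellite cells, the stem cells of skeletal muscle, were sorted by flow cytometry from hindlimb muscles of adult C57BL6/J mice, all of which had received tamoxifen at 10 mg in total to induce Cre. Of the libraries, 3 carried the genotype label scERα WT and 3 the label scERα KO, read here as a knockout of estrogen receptor α, which Esr1 encodes. The Cre line and its promoter, and whether WT mice also carried Cre, are not given in the sources used here. A single contrast follows from the design, KO against WT.

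Fatty acid synthesis begins in the cytosol, where acetyl-CoA carboxylase (Acaca) makes malonyl-CoA and fatty acid synthase (Fasn) extends it to palmitate. Stearoyl-CoA desaturases (Scd1 and Scd2 in these libraries) then introduce a double bond, and the transcription factor gene Srebf1 drives many of these enzymes in liver and fat. Glycerolipids are built by attaching acyl chains to a glycerol backbone: Gpam encodes the mitochondrial acyltransferase of the first step, Agpat2 an enzyme of the second, Lpin1 the phosphatase that yields diacylglycerol, and Dgat1 and Dgat2 the enzymes that complete triglyceride. The same early steps also feed membrane phospholipids.

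Values were TPM, a measure of relative abundance scaled for transcript length, so that levels of different genes can be set side by side. The listed symbols summed to between 295306 and 334382 TPM per library. TPM keeps no depth, so the depth of the libraries is unknown and counting error cannot be given. Whether the libraries of a group stem from different mice is not in the labels. The p-values thus measure only the spread among libraries, which may be technical. Esr1, the targeted gene, was lower in each KO library (2.92 to 3.87 TPM) than in any WT library (6.94 to 7.53 TPM), a log2 difference of -0.86 (limma SE 0.13, adjusted p = 0.0925 with Benjamini-Hochberg adjustment). The exact permutation test, two-sided, returned p = 0.1, the smallest possible with 3 against 3 libraries. The 12 satellite cell markers all had a mean above 1 TPM and summed to 480 to 639 TPM in WT and 506 to 624 TPM in KO, with Pax7 between 17.9 and 32.8 TPM.

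Gpam lies on chromosome 19 at 55067268 to 55127238 on the minus strand (GRCm38), with 5 annotated transcripts. RefSeq gives it a pair of start sites, the outer one at the gene's annotated edge and an inner one within the gene, and the deposited value per symbol does not separate them. The 250 bases before each start are shown because Gpam is the member whose level differed most. Those before Fasn, a member of the same pathway, are shown because its groups overlapped, as did those of other members with a window. All are from RefSeq (GRCm38.p6) on the minus strand, at chr19:55127239-55127488 (Gpam, outer), chr19:55099478-55099727 (Gpam, inner) and chr11:120824548-120824797 (Fasn). Capitals mark matches, on either strand, to the motifs described after the sequences.
Gpam outer: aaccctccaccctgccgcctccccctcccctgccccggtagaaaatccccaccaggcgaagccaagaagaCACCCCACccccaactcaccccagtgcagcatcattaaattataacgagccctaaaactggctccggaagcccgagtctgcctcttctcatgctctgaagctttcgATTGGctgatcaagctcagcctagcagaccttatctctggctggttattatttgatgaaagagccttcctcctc
Gpam inner: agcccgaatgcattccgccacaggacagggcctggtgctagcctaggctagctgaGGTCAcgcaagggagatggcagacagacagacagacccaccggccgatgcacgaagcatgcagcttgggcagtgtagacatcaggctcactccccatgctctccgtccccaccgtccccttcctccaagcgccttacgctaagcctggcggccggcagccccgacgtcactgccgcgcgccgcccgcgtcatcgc
Fasn: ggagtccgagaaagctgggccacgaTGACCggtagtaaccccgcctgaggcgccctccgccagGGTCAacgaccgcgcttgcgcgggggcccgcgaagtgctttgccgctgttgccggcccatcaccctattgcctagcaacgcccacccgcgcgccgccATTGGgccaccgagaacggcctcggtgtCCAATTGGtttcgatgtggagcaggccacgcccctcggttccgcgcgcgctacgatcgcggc

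The motifs searched were the palindromic estrogen response element GGTCANNNTGACC, its half-site GGTCA, the core of the sterol response element CACCCCAC, the E-box CACGTG and the CCAAT box, each on both strands. The half-site is contained in the palindrome, so every palindrome also counts as half-sites. The outer Gpam window held 1 sterol response element core, 180 bases before the start, and 1 CCAAT box on the opposite strand, 74 bases before it. The inner Gpam window held 1 estrogen response half-site, 195 bases before the start. The Fasn window held 2 half-sites and 3 CCAAT boxes, of which a pair overlap. Neither gene's windows held the palindrome or the E-box. Of 32851 RefSeq promoter windows of the same length, 35.2% held the half-site, 33.8% the CCAAT box, 6.02% the E-box, 2.58% the sterol core and 0.0639% the palindrome. A match is only a description of the letters. Promoter windows were found for 6 of the 10 genes, 9 windows in all, and not for Scd1, Scd2, Dgat1 or Dgat2.

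Gpam, the mitochondrial glycerol-3-phosphate acyltransferase gene, was the member that stood apart. The WT libraries held 8.26, 3 and 4.39 TPM and the KO libraries 0.67, 1.13 and 0.84 TPM. All 3 KO values lay below all 3 WT values, and the lowest WT value was 2.65 times the highest KO value. The means were 5.22 ± 2.73 TPM in WT and 0.88 ± 0.233 TPM in KO (SD, n = 3 each), so the KO mean was 16.9% of the WT mean, a ratio of 5.93. On the log2(TPM + 1) scale, which understates changes of low genes, the difference was -1.64 (SE 0.37 over libraries). It was the 15th lowest of the 8971 genes that reached 1 TPM in 3 or more libraries, the filter used throughout, where the median difference was 0.12 and 48 genes lay below -1. Gpam passed this filter through its WT libraries, since of the KO libraries only KO library 2 reached 1 TPM. It was singled out from this contrast, so its rank is a description. WT library 1 held the highest Gpam value by far: without it the WT mean was 3.70 TPM, 4.2 times the KO mean.

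**Figure D1:**
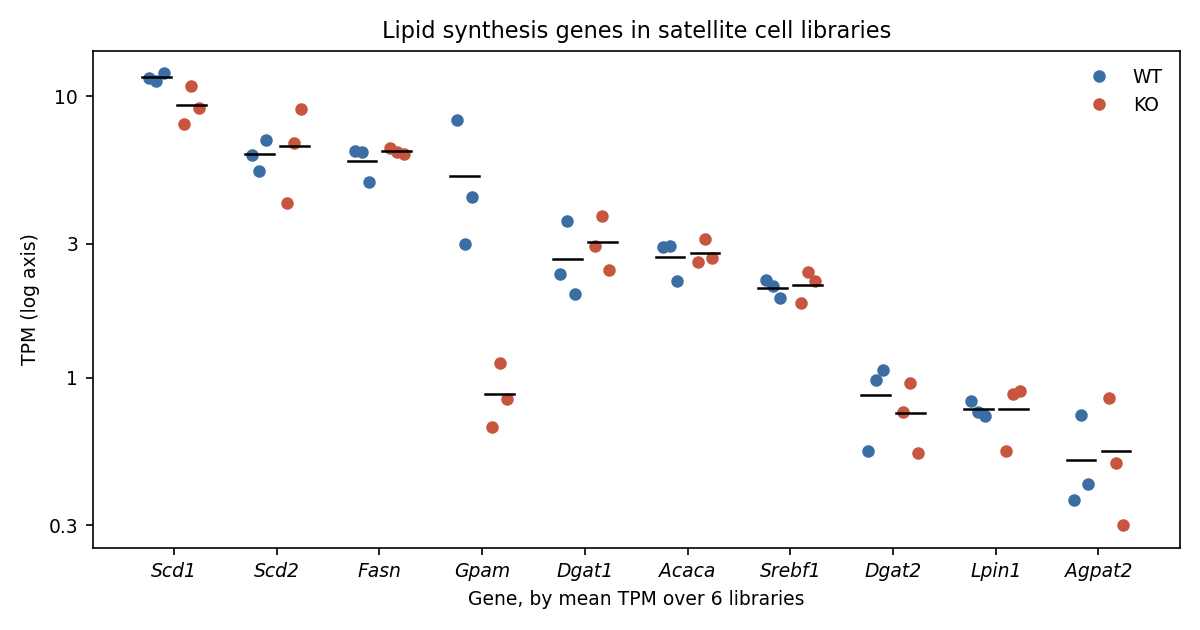
TPM on a log axis for the 10 genes, ordered by mean level, with 1 point per library (blue WT, red KO, n = 3 each) and a black line at each group mean. The groups are separated in Gpam (3 to 8.26 against 0.67 to 1.13 TPM) and narrowly in Scd1, and overlap in the other 8.

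Since glycerol-3-phosphate acyltransferase activity is shared by several enzymes, the other genes of this step were set beside Gpam. Gpat4, an enzyme of the endoplasmic reticulum, held 6.47, 7.51 and 5.29 TPM in WT and 7.89, 5.75 and 5.94 TPM in KO, and the groups overlapped (log2 difference 0.02, limma SE 0.17, adjusted p = 0.967). Gpat3 was low, at 0.24 to 0.75 TPM in WT and 0.41 to 0.53 TPM in KO, and Gpat2 was at 0.13 TPM or less in every library. Summed without Gpam, these 3 genes gave 7.06 ± 1.2 TPM in WT and 7.04 ± 1.23 TPM in KO (SD, n = 3 each). Gpam made up 55.1%, 26.3% and 42.1% of the summed TPM of all 4 genes in the WT libraries and 7.35%, 15.4% and 11.5% in the KO libraries. Gpat4 took most of the remainder, 53.3% ± 11.6 of the sum in WT and 82.0% ± 4.07 in KO (SD, n = 3 each). The sum of the 4 genes was 10.4 to 15.0 TPM in WT and 7.32 to 9.12 TPM in KO.

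**Figure D2:**
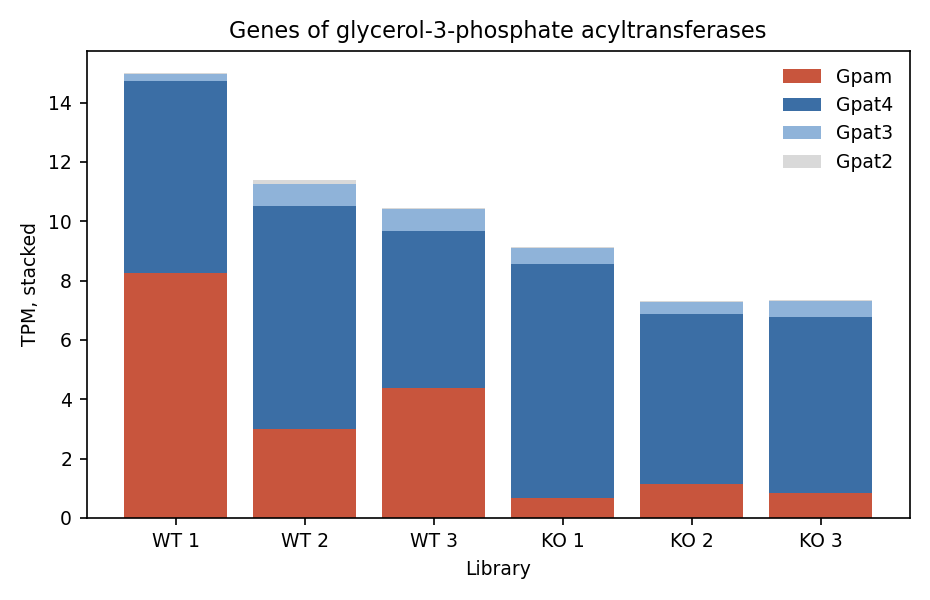
Stacked bars of TPM for the 4 glycerol-3-phosphate acyltransferase genes in each library. The Gpam segment spans 3 to 8.26 TPM in the WT libraries and 0.67 to 1.13 TPM in the KO libraries, while the Gpat4 segment spans 5.29 to 7.89 TPM over all 6.

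The members downstream of Gpam showed overlapping groups. Agpat2, an acyltransferase of the second step (chromosome 2, 26593057 to 26604417, minus strand), was the lowest of the 10 genes, at 0.37, 0.74 and 0.42 TPM in WT and 0.85, 0.50 and 0.30 TPM in KO. The highest and the lowest of its 6 values both came from KO libraries. Within its family Agpat2 was a minor member, at 4.2% ± 0.845 of the summed TPM of Agpat1 to Agpat5 in WT and 3.96% ± 2.09 in KO (SD, n = 3 each). Agpat5 held the largest share of that sum, 35.2% in WT and 35.3% in KO.

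Lpin1, whose product dephosphorylates phosphatidate (chromosome 12, 16535669 to 16610966, minus strand), held 0.83, 0.76 and 0.73 TPM in WT and 0.55, 0.88 and 0.90 TPM in KO. The means were 0.773 and 0.777 TPM, and the KO values enclosed the WT values. Lpin2 and Lpin3, the other lipins, carried most of the family's TPM, with Lpin1 at 14.5% ± 2.43 in WT and 12.4% ± 3.35 in KO (SD, n = 3 each).

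Dgat1, which completes triglyceride in the endoplasmic reticulum (chromosome 15, 76502015 to 76511953, minus strand), held 2.33, 3.62 and 1.98 TPM in WT and 2.94, 3.75 and 2.41 TPM in KO. Its log2 difference of 0.16 (SE 0.24 over libraries) was smaller than its error. Dgat2, an unrelated enzyme for the same reaction (chromosome 7, 99153658 to 99182719, minus strand), held 0.55, 0.98 and 1.07 TPM in WT and 0.76, 0.96 and 0.54 TPM in KO. Dgat1 made up 64.9% to 80.9% of the summed TPM of this pair in WT and 79.5% to 81.7% in KO.

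Among the genes of fatty acid synthesis, Scd1 was the other member whose groups did not overlap. Scd1, a stearoyl-CoA desaturase (chromosome 19, 44394455 to 44407879, minus strand), had the highest mean level of the 10 genes, at 11.58, 11.34 and 12.06 TPM in WT and 7.99, 10.87 and 9.10 TPM in KO. The gap between the groups, from 10.87 to 11.34 TPM, was smaller than the spread of the KO values. The mean went from 11.7 ± 0.367 to 9.32 ± 1.45 TPM (SD, n = 3 each), or 79.9% of WT, a log2 difference of -0.30 (SE 0.12 over libraries). Of all genes tested, 4.35% had a difference as low or lower.

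Scd2, a neighbouring desaturase gene on the same chromosome (44293674 to 44306864, plus strand), showed no such separation. The desaturase genes are similar copies, so the split of reads between them is uncertain. It held 6.21, 5.44 and 7 TPM in WT and 4.19, 6.82 and 9.02 TPM in KO, so that the KO libraries held both the lowest and the highest value. The summed TPM of 12 Schwann cell markers ran the same way across the KO libraries, with 22.4, 34.7 and 45.6 TPM, and was 17.7, 18.6 and 24.2 TPM in the WT libraries. In that list 6 markers passed the filter, none was at 0 in all libraries, and 0 were called by limma. Of all 12, passing or not, 5 had every KO value above every WT value and 1 had every KO value below. Among all genes tested these shares were 13.5% and 3.07%. Sox10, a transcription factor gene of Schwann cells, stayed at 0.42 TPM or less in every library. The sums of fibro-adipogenic progenitor markers (166, 184 and 193 TPM) and of leukocyte markers (5.73, 7.99 and 12.4 TPM) had that order in KO too. KO library 1, the lowest for Scd2, also had the lowest KO sum of adipocyte, endothelial, mural and mature fibre markers. In these lists, unlike Scd2, KO library 2 had the highest KO sum. The part of any of these cells in the Scd2 values was not tested. In bulk samples, fewer cells of a type and less RNA per cell cannot be told apart.

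Fasn, the fatty acid synthase gene (chromosome 11, 120805846 to 120824547, minus strand), held 6.41, 6.33 and 4.95 TPM in WT and 6.53, 6.34 and 6.26 TPM in KO. The KO values had a coefficient of variation of 2.18%, the smallest of any group of the 10 genes, and 2 of them lay inside the WT range. Acaca, which supplies malonyl-CoA (chromosome 11, plus strand, 84129672 to 84401651), was at 2.92, 2.95 and 2.21 TPM in WT and 2.59, 3.11 and 2.66 TPM in KO. Srebf1, the transcription factor gene (chromosome 11, 60199089 to 60222581, minus strand), held 2.23, 2.12 and 1.92 TPM in WT and 1.85, 2.37 and 2.21 TPM in KO. For all 3 of these genes the groups overlapped, and their log2 differences of 0.10, 0.04 and 0.02 lay below the median of all genes tested.

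**Figure D3:**
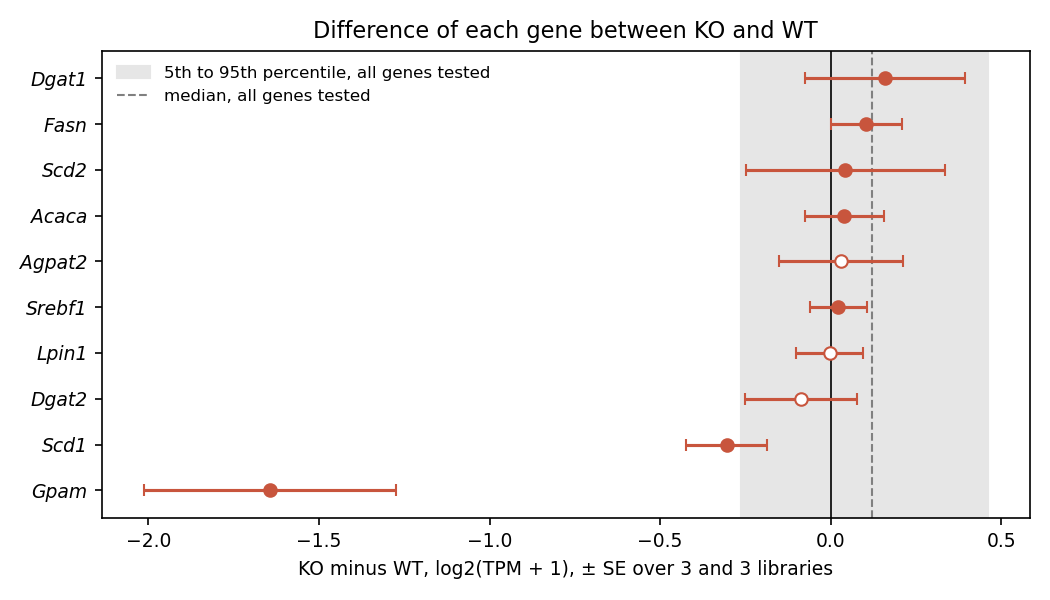
KO minus WT difference of each gene on the log2(TPM + 1) scale with its SE over 3 and 3 libraries, open points marking genes under the filter. The shaded band spans the 5th to 95th percentile of all genes tested, -0.26 to 0.46, and only Gpam at -1.64 and Scd1 at -0.30 have points outside it.

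Across the 10 genes, 6 had a higher and 4 a lower value in KO, with a median log2 difference of 0.03, against 0.12 for all genes tested, of which 77.6% had a higher value. The 3 KO values were below the 3 WT values in 2 members, Gpam and Scd1, and in 3.07% of genes tested. They were above them in 0 members and in 13.5% of genes tested. Of the 10 genes 7 passed the filter, and Agpat2, Lpin1 and Dgat2 did not. The fit over 8971 genes called 3 genes higher (0.0334%) and 2 lower (0.0223%) at a limma adjusted p under 0.05, with 0 members among them. Nothing is read from these counts about the members. Gpam was singled out from this contrast, and the others were chosen around it with earlier results of these data known. The signs of the small differences moved with the scaling. Under median-of-ratios scaling or quantile normalization, which brought the median of all genes from 0.12 to 0.003 and -0.01, Fasn, Acaca, Srebf1, Scd2 and Agpat2 turned negative, at -0.10 to -0.01. In those settings the Gpam difference was -1.75 and -1.77 and the Scd1 difference -0.45 and -0.46.

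Libraries differed more in some members than in others. Within WT the coefficient of variation ran from 3.14% for Scd1 to 52.3% for Gpam, and within KO from 2.18% for Fasn to 50.6% for Agpat2. Adipocytes are a cell type in which Gpam and the triglyceride pathway are abundant, and their defining markers were near 0. Adipoq was at 0.03 TPM in 1 WT library and 0 in the other 5 libraries, Retn was at 0 in all 6, and Plin1, Cidec, Lep and Cfd did not exceed 0.11 TPM. Of the 10 adipocyte markers only Fabp4, which endothelial cells also express, had a mean above 1 TPM. It made up most of the list's sum of 10.8 to 16.9 TPM in WT and 6.97 to 35.3 TPM in KO. The part of adipocytes in the Gpam values was not tested beyond these levels.

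The wider pathway was read from 9 lists of other lipid genes, 107 of whose 169 genes passed the filter. At the limma threshold 0 were called in either direction, with an unadjusted p under 0.05 in 5 higher and 2 lower, against 708 and 239 of the 8971 genes tested. A higher value in KO was found in 86 and a lower value in 21, with a median of 0.13, close to the 0.12 of all genes tested. The KO values were all above the WT values in 10 genes and all below them in 4, against 13.5% and 3.07% of all genes tested. With median-of-ratios scaling or quantile normalization the medians of fatty acid synthesis, of SREBP processing, of cholesterol synthesis and of lipid droplet genes, positive in the account that follows, turned negative by less than 0.1, and that of phospholipid synthesis came to within 0.01 of 0. The median of oxidation genes went from 0.16 to 0.05 and 0.02 in these settings, that of elongation and desaturation from 0.20 to 0.10 and 0.09, and that of activation and uptake from 0.27 to 0.17 and 0.15. Leaving out 1 library also moved these medians, and turned that of cholesterol synthesis to -0.03 (without WT library 3) and that of lipid droplet genes to -0.05 (without WT library 1). Over the same omissions the median of all genes tested lay between 0.08 and 0.19.

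In the list of cholesterol synthesis, 13 of 16 tested genes had a higher and 3 a lower value, and the median was 0.09. Msmo1, a sterol demethylating enzyme, held 4.52 ± 1.35 TPM in WT and 5.58 ± 0.344 TPM in KO, and Idi1, which isomerises isopentenyl diphosphate, 9.95 ± 3.70 and 10.1 ± 1.22 TPM (SD, n = 3 each). Srebf2, the transcription factor gene that governs this branch, was more abundant than Srebf1, at 10.4 ± 2.23 TPM in WT and 12.6 ± 0.344 TPM in KO (SD, n = 3 each; limma adjusted p = 0.586). Insig2, which retains the factors in the endoplasmic reticulum, was at 9.24 ± 1.52 and 11.3 ± 1.53 TPM. In the list of factors that process or accompany them, 9 of 14 tested genes had a higher value, with a median of 0.09.

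**Figure D4:**
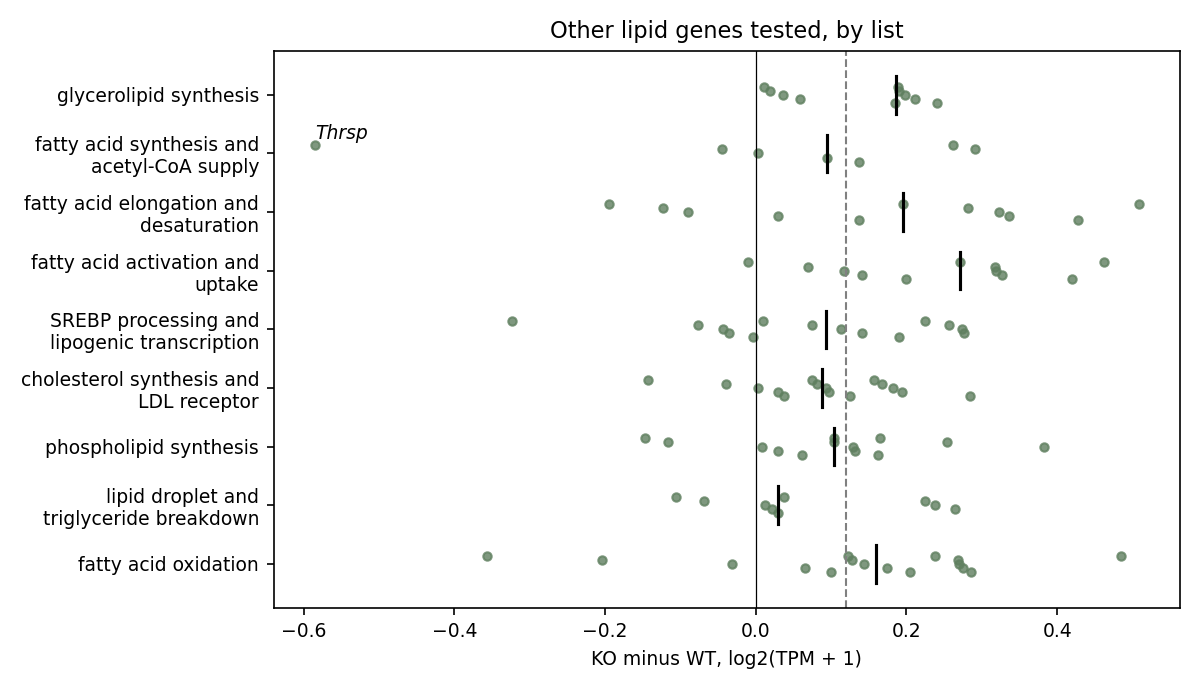
KO minus WT difference on the log2(TPM + 1) scale of other lipid genes tested, by list, 1 point for each gene plotted, with a black bar at the median of each whole list and a dashed line at the median of all genes tested (0.12). Thrsp at -0.58 lies apart from the other points, which span -0.36 to 0.51.

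The rest of glycerolipid synthesis gave 10 of 10 tested genes a higher value in KO, as did 77.6% of all genes tested, with a median of 0.19. It was 0.02 without WT library 3 and 0.29 without WT library 2. That median was 0.07 with median-of-ratios scaling and 0.05 with quantile normalization, where the Gpat4 difference was -0.11 and -0.14. None was called by limma, and 0 had an unadjusted p under 0.05. Agpat3 held 2.63 ± 0.349 TPM in WT and 3.19 ± 0.0723 TPM in KO, without overlap. Plpp3, a lipid phosphate phosphatase, was at 4.87 ± 0.546 and 5.99 ± 1.24 TPM (SD, n = 3 each).

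Upstream, the supply of acetyl-CoA and its regulators gave a median of 0.10 over 7 tested genes. Acly, which makes cytosolic acetyl-CoA from citrate, was at 5.44 ± 0.944 TPM in WT and 5.41 ± 0.407 TPM in KO (SD, n = 3 each). Thrsp, a gene known for its induction in lipogenic tissues, held 1.01, 1.08 and 1.83 TPM in WT and 0.34, 1.11 and 0.24 TPM in KO. Its groups overlapped through KO library 2, and the log2 difference of -0.58 (limma SE 0.23) did not pass (adjusted p = 0.403).

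Fads3 and Fads2, genes of the fatty acid desaturase family, lay on the other side. Fads3 held 3.35, 5.06 and 3.25 TPM in WT and 5.43, 6.26 and 5.90 TPM in KO, and Fads2 1.62, 1.79 and 1.31 TPM against 1.89, 2.76 and 2.78 TPM. Neither gene's groups overlapped, and neither passed (limma adjusted p = 0.301 and 0.349). Tecr, the last reductase of the elongation cycle, went the other way, at 8.21 ± 0.541 TPM in WT and 7.04 ± 0.413 TPM in KO (SD, n = 3 each; limma adjusted p = 0.604). The list as a whole had 8 of 11 tested genes with a higher value and a median of 0.20.

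Fatty acid activation and uptake had a higher value in 10 of 11 tested genes, with a median of 0.27. Acsl3, a long-chain acyl-CoA synthetase, was at 12.1 ± 2.52 TPM in WT and 15.4 ± 2.92 TPM in KO, and Acbd3, an acyl-CoA binding domain protein of the Golgi, at 5.80 ± 0.177 and 7.54 ± 0.558 TPM (SD, n = 3 each; limma adjusted p = 0.371 for Acbd3). Phospholipid synthesis had a median of 0.10 over 13 tested genes, 11 of them with a higher value. Crls1, the cardiolipin synthase gene, held 1.5, 1.12 and 1.44 TPM in WT and 1.89, 1.92 and 2.39 TPM in KO (limma adjusted p = 0.339).

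Lipid droplet and triglyceride breakdown genes had a median of 0.03 over 9 tested genes, 7 with a higher and 2 with a lower value. Plin2, the droplet coat protein found in most cells, was at 1.10 ± 0.354 TPM in WT and 1.47 ± 0.374 TPM in KO, and Pnpla2, the triglyceride lipase, at 4.62 ± 1.15 and 4.32 ± 0.675 TPM (SD, n = 3 each). Fatty acid oxidation, the route opposite to synthesis, had a median of 0.16 over 16 tested genes, 13 of them with a higher value. Acadl, a long-chain acyl-CoA dehydrogenase, held 4.41, 5.48 and 4.80 TPM in WT and 6.68, 7.40 and 7.63 TPM in KO, without overlap, and did not pass (log2 difference 0.48, limma SE 0.13, adjusted p = 0.221). It was called, at an adjusted p of 0.0461 by limma, when protein-coding genes alone were rescaled, the lowest of 16 alternatives, of which the highest gave 0.6.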

How the data were processed

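Total RNA was isolated with an RNeasy column kit and sequenced on Illumina libraries, per the labels' protocols. Kallisto, Trimmomatic 0.33, CASAVA and FastQC appear in the submitters' processing notes, as do builds mm10 and GRCm38, with no role or order. The values deposited by the authors are TPM, 1 per symbol.

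Groups came from the genotype labels, and the numbers in the titles pair no libraries. The filter kept 8971 genes at 1 TPM or above in 3 libraries. On the log2(TPM + 1) scale these entered limma (version 3.58.1, R 4.3.3; trended eBayes, two-sided), and p-values were adjusted over all of them by Benjamini-Hochberg, with a threshold of 0.05. For members, no p is given and SEs are over libraries. The procedure was tested on simulated data. Positions are from GENCODE vM21 (GRCm38), matched by symbol, 1-based.

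The members, lists and tests were chosen with earlier results of these data known. The text names all 10 members, Esr1 and, from each pathway list, genes called, the 3 with the smallest p or the 2 with the highest mean TPM; further list members were named for their place beside a member, and Retn, Lep, Cfd, Cidec, Adipoq, Plin1, Sox10 and Pax7 as defining markers. Some genes under this rule, 1 of them also left off the plot of lipid lists, are not reported here. It also names the 5 genes most like Gpam and the 3 least like it. Of the 8 marker lists, those of satellite cells, Schwann cells and adipocytes are given with the results. The summed TPM of the others in WT and KO was 135 to 239 and 166 to 193 for fibro-adipogenic progenitors, 13.3 to 20.2 and 12.8 to 27.4 for endothelial cells, 20.7 to 24.6 and 18.8 to 36.1 for mural cells, 3.44 to 15.5 and 5.73 to 12.4 for leukocytes, and 12.3 to 27.9 and 8.59 to 42.9 for mature fibres. The alternatives were pseudocounts of 0.1 and 5, other filters, other scalings, other variance models and leaving out each library.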

Additional observations from a re-analysis of the deposited data

How the results depend on the processing

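Gpam was lower in KO in all 16 alternatives, as was Scd1, but for most of them this sign was fixed in advance. Filters and variance models leave the differences unchanged. A pseudocount or a left-out library cannot reverse the sign where groups do not overlap. Only the other scalings could have done so. The Gpam difference was -2.34 with a pseudocount of 0.1, -0.77 with 5 and -2.27 with protein-coding genes rescaled, settings that change the weight of the pseudocount by construction, and between -1.92 and -1.31 when 1 library was left out. The counts of all genes called by limma moved more. Higher in KO were 0 with a pseudocount of 0.1, with no filter or with a mean TPM of 1 or more, 1 with TPM of 5 or more in 3 libraries, with median-of-ratios scaling or with quantile normalization, 17 with robust variance estimates, 81 with protein-coding genes rescaled, and 0 to 3 when 1 library was left out. Lower were 0 with a pseudocount of 5, with no filter or with a mean TPM of 1 or more, 1 with median-of-ratios scaling, 16 with robust estimates, 67 with protein-coding genes rescaled, and 0 to 1 when 1 library was left out. Other lipid genes called were 1 with robust estimates, 2 with protein-coding genes rescaled (Acadl among them), and 0 to 1 when 1 library was left out (1 without WT library 1). The Esr1 difference passed with robust estimates (-0.86, limma adjusted p = 0.024) and with protein-coding genes rescaled (-0.95, limma adjusted p = 0.0303). No paired analysis was possible because the titles give the groups no shared numbers. For these counts the cause was not tested. The depth behind single values is unknown.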

Other observations

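The genes whose levels ran most like Gpam over the 6 libraries were taken from 8128 named genes that passed the filter, by Pearson's r on log2(TPM + 1), as a description. The points share the split into WT and KO, which alone gives a high r to any gene that differs between the groups. The 5 most alike were Greb1, Sphk1, Bcar3, Plekhg3 and Rpl37rt, with r from 0.961 to 0.975. Greb1, a known estrogen-responsive gene, held 3.06, 1.25 and 1.32 TPM in WT and 0.43, 0.36 and 0.35 TPM in KO. Sphk1, a sphingosine kinase gene and so also an enzyme of lipid metabolism, held 3.87, 2.12 and 3.10 TPM in WT and 1.37, 1.41 and 1.63 TPM in KO. Bcar3, an adaptor of integrin signalling, held 28.7, 18.2 and 17.2 TPM in WT and 11.4, 12.7 and 10.8 TPM in KO. In all 3 of these genes, as in Gpam, WT library 1 had the highest value and the groups did not overlap. Choosing genes for a high r with Gpam favours both traits, so nothing is read from them. All KO values lay below all WT values in 3.07% of genes tested. Greb1 passed the filter through its WT libraries alone. Rpl37rt is a retrotransposed copy of a ribosomal protein gene, and reads may be shared with its parent, so its value is uncertain. The 3 least alike were Rhoa, Riok1 and Nipsnap3b, with r from -0.986 to -0.983. Rhoa, a small GTPase of the cytoskeleton, held 26.8, 34.8 and 30.8 TPM in WT and 40.1, 37.4 and 39.5 TPM in KO. Among the other 9 lipid synthesis genes the highest r with Gpam was 0.796 for Scd1, and the other 8 lay between -0.43 and 0.175.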
